A study of Canis lupus familiaris with 34 samples.

Results

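FOS, EGR1, JUN, BTG2 and ATF3 were followed by their gene symbols across all 34 libraries of a dog osteosarcoma RNA sequencing study. They are 5 of the 23988 rows of the deposited table, and all 5 passed the filter on low values described below. FOS and JUN proteins pair to form the transcription factor AP-1, and EGR1 is a zinc finger transcription factor. All 3 are immediate early genes, which resting cells transcribe at once after a growth factor, wounding or stress, before any new protein is needed. In mice, forced expression of Fos gives rise to bone tumours. ATF3 is a related leucine zipper factor that can pair with JUN and is also switched on by ATF4 in the integrated stress response, the programme that follows amino acid shortage or misfolded protein. BTG2 restrains proliferation, is a target of p53, and acts through messenger RNA decay rather than by binding DNA, so the name transcription factor fits it only loosely.

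Osteosarcoma is a cancer of the cells that make bone. The libraries, made from total RNA with a TruSeq kit, comprised 1 metastasis (DOS.6M), 2 cell lines of the tumour (OSCA.78 and OSCA.8), 1 osteoblast culture (CNOB) and 30 primary tumour libraries. All 34 labels give the Golden Retriever as breed, although the design text also speaks of Rottweilers, so breeds were not compared. No treatment, age or sex is given. The tissue label reads bone tumour for the metastasis and the lines as well, the site of the metastasis is not stated, and each line is represented by 1 library. DOS.46.2 carries the title number of DOS.46, and this pair was averaged on the log2 scale, which leaves 29 primary tumours. Labels do not say whether tumours came from separate dogs or whether libraries that share a title number came from the same dog. The p-values below therefore measure the spread between these samples, which may be technical in part.

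The table's values, taken to be FPKM, are fragment counts corrected for transcript length and library size. Summed FPKM per library ranged from 479053 to 1418308, and between 15328 and 17711 rows had a value above 0. The osteoblast culture had both the highest sum, against at most 837067 in a tumour, and the fewest rows above 0, so its levels are also given rescaled, as FPKM per 1000000 of each library's summed FPKM, a scale chosen after seeing the data. The number of reads is unknown. Across genes, DOS.100 and DOS.32 were more alike (r = 0.844 between their deviations from the mean library) than DOS.46 and DOS.46.2 (r = 0.729). DOS.110 and DOS.115 came next among the tumours (r = 0.671). No label relates DOS.100 to DOS.32 or DOS.110 to DOS.115, so each was kept as a separate tumour, although they may not be independent. Fits were also repeated without DOS.32 and DOS.115, which drops a library of either pair. The mineral-binding bone protein IBSP stood at 783 FPKM in the metastasis, 1.96 in OSCA.8, 0.717 in OSCA.78 and 6.95 in the osteoblast culture, against 48.6 to 5170 in the tumours. SP7, a transcription factor that defines osteoblasts, stood at 24.7 FPKM in the culture, 5.08 in OSCA.78 and only 0.201 in OSCA.8, against 7.72 to 128 in the tumours. Both lines thus lay below every tumour for both bone markers, as for 7.3% of all genes tested (those reaching 1 FPKM in 2 or more libraries), and the culture lay below every tumour for IBSP.

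FOS spanned the widest range of the 5 genes. It stood at 1378 FPKM in the metastasis, 107 in OSCA.8, 5.86 in OSCA.78 and 209 in the osteoblast culture. In the 29 primary tumours it had a minimum of 9.23 FPKM in DOS.111, a median of 103 and a maximum of 1412 in DOS.6, a 153-fold range. Its mean was 278 ± 364 FPKM (SD, n = 29). The metastasis lay beside the highest tumour, OSCA.8 and the culture lay within the tumour range, and OSCA.78 lay below every tumour. Of the 15165 genes tested, 18.3% had OSCA.78 below every tumour, so that position is not unusual for this library.

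EGR1 stood at 472 FPKM in the metastasis, 129 in OSCA.8, 14.2 in OSCA.78 and 284 in the osteoblast culture. The primary tumours had a minimum of 7.26 FPKM in DOS.73, a median of 47.1 and a maximum of 487 in DOS.76 (mean 89.5 ± 113, SD, n = 29). All 4 other libraries lay within the tumour range, the metastasis below 1 tumour and the culture below 3. JUN stood at 743 FPKM in the metastasis, 175 in OSCA.8, 57.4 in OSCA.78 and 140 in the culture. The primary tumours had a minimum of 46.5 FPKM in DOS.111, a median of 112 and a maximum of 713 in DOS.6 (mean 183 ± 169, SD, n = 29), a 15.3-fold range. JUN in the metastasis lay 1.04-fold above the highest tumour. After rescaling, the metastasis lay 1.08-fold above the highest tumour for JUN, and also above it, by 1.02-fold for EGR1 and 1.01-fold for FOS.

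BTG2 stood at 63.5 FPKM in the metastasis, 4.06 in OSCA.8, 4.92 in OSCA.78 and 99.6 in the osteoblast culture. The primary tumours had a minimum of 1.95 FPKM in DOS.101, a median of 6.88 and a maximum of 84.0 in DOS.110 (mean 13.3 ± 17.8, SD, n = 29). Here the culture lay 1.19-fold above the highest tumour, as it did above every tumour for 22% of all genes tested. After rescaling it lay below 2 tumours, at 70.2 per 1000000 of summed FPKM in the culture, against 122 in the highest tumour. ATF3 stood at 361 FPKM in the metastasis, 4.69 in OSCA.8, 6.46 in OSCA.78 and 47.8 in the culture. Primary tumours had a minimum of 2.28 FPKM in DOS.73, a median of 7.57 and a maximum of 86.8 in DOS.6 (mean 13 ± 16.6, SD, n = 29). ATF3 in the metastasis lay 4.15-fold above the highest tumour (4.3-fold after rescaling) and 47.6-fold above the tumour median. Of all genes tested, 759 (5%) had the metastasis above every tumour.

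**Figure D1:**
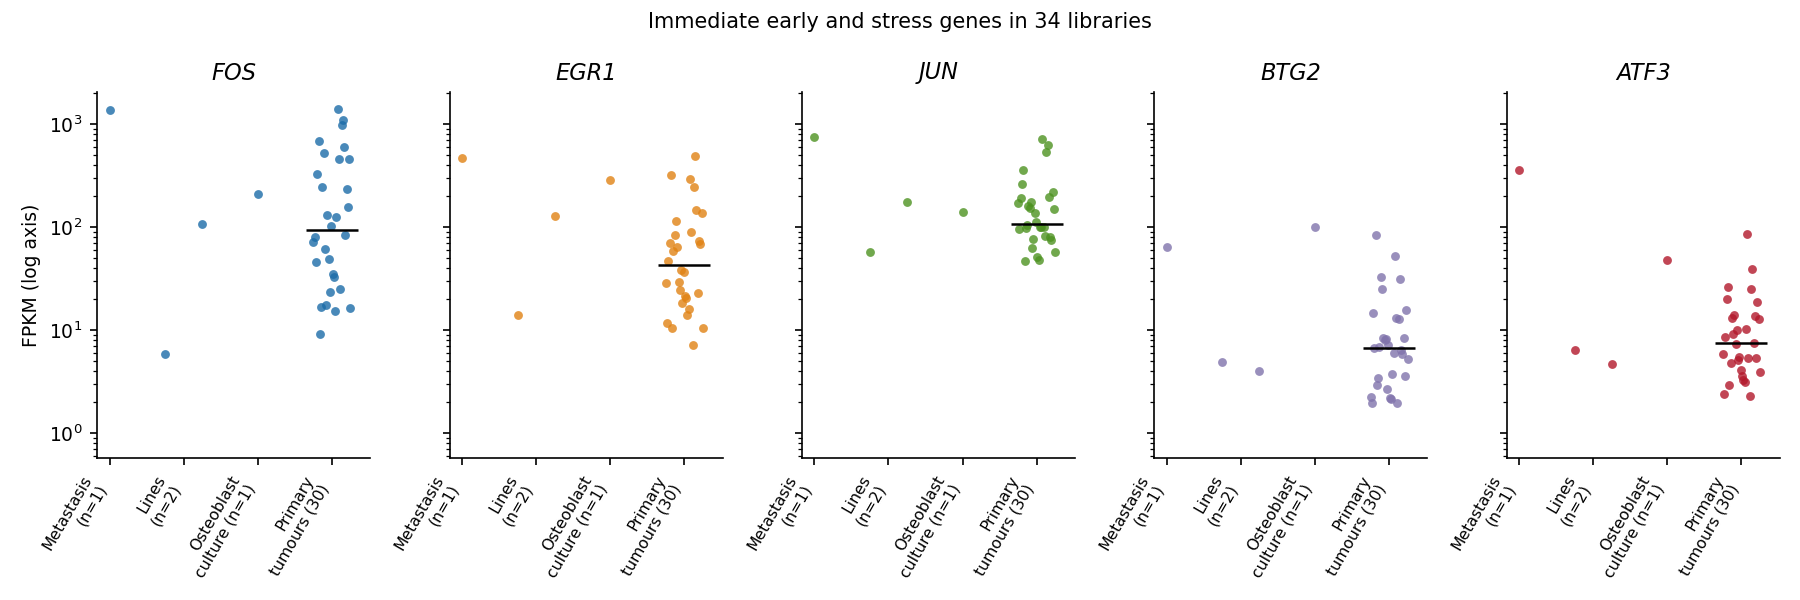
Level of each gene in FPKM (log axis) in the metastasis, the 2 osteosarcoma lines, the osteoblast culture and the 30 primary tumour libraries, with 1 point per library and a bar at the median of the primary tumours. ATF3 at 361 FPKM in the metastasis stands clear of the tumours, whose highest value is 86.8, whereas FOS at 1378 stands beside a highest tumour of 1412.

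On the FPKM scale, JUN and FOS had the highest levels and BTG2 and ATF3 the lowest. JUN exceeded FOS in 15 of 29 tumours, and BTG2 exceeded ATF3 in 13 of 29, so the order within either pair did not hold across tumours. FOS exceeded EGR1 in 24 of 29 tumours. EGR1 exceeded both BTG2 and ATF3, and was below JUN, in all 29. After adding 1 FPKM and taking log2, the standard deviation between tumours was 2.09 for FOS, 1.58 for EGR1, 1.27 for BTG2, 1.13 for ATF3 and 1.02 for JUN, against a median of 0.538 over the 15165 genes. FOS ranked 158th and JUN 1394th by this measure.

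The same tumours tended to hold the highest values of all 5 genes. DOS.6, DOS.76 and DOS.110 were among the 6 highest tumours for each gene, and DOS.111 was among the 6 lowest for each. DOS.6 had 1412 FPKM of FOS, 296 of EGR1, 713 of JUN, 52.9 of BTG2 and 86.8 of ATF3. DOS.111 had 9.23 FPKM of FOS, 10.4 of EGR1, 46.5 of JUN, 2.97 of BTG2 and 2.94 of ATF3. Other tumours were high in some of the genes: DOS.78 ranked 5th for FOS and EGR1 but 17th for BTG2 and 15th for ATF3. DOS.84 ranked 6th for JUN and ATF3 but 22nd for BTG2. The sorted values formed a gradient rather than separate clusters, with the largest gap between neighbouring tumours between 9.66% and 15.4% of the range for FOS, EGR1, JUN and BTG2, and 24% for ATF3, where DOS.6 stood apart. In the pair DOS.46 and DOS.46.2, the 5 genes differed by between -0.03 and -0.09 on the log2 scale.

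**Figure D2:**
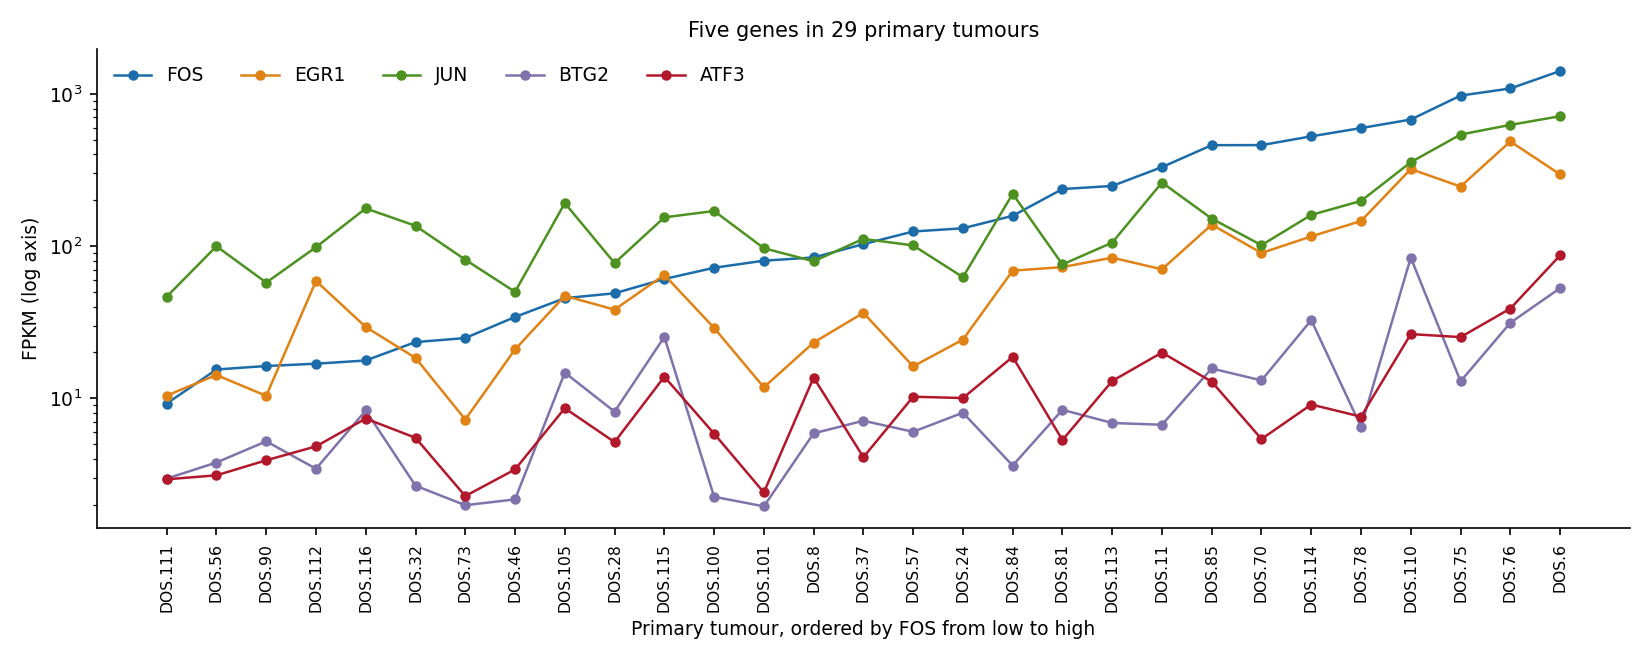
Level of the 5 genes in FPKM (log axis) in the 29 primary tumours, ordered from low to high FOS, with 1 coloured line per gene. FOS climbs from 9.23 to 1412 FPKM, and the other 4 genes end high on the right, with JUN between 46.5 and 713 the flattest line.

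All 10 pairs of the 5 genes correlated positively over the 29 tumours. The closest pair was FOS with EGR1 (Pearson r = 0.855, Spearman rho = 0.849, each with permutation p = 1e-05, the smallest that 100000 permutations can give), and r was 0.818 without DOS.6 and DOS.76, which lay farthest from the FOS median. JUN with ATF3 followed at r = 0.827 (permutation p = 1e-05) and rho = 0.742 (permutation p = 2e-05), with r = 0.723 without those tumours. The loosest pair was JUN with BTG2, at r = 0.642 (permutation p = 0.00019) and rho = 0.533 (permutation p = 0.00349), with r = 0.502 without the same tumours. ATF3 with FOS had r = 0.745 (permutation p = 1e-05) and rho = 0.733 (permutation p = 2e-05), with r = 0.668 without DOS.6 and DOS.76 and 0.712 without DOS.6 alone. Averaged over its 4 partners, r was 0.809 for EGR1, 0.774 for ATF3, 0.744 for FOS, 0.740 for JUN and 0.711 for BTG2. Each gene also rose with the number of detected genes, the rows above 0 in a tumour. That r was 0.523 for ATF3, 0.434 for JUN, 0.405 for EGR1, 0.363 for FOS and 0.347 for BTG2. With this number in the regressions described below, 17 slopes of a member on another kept their side of the threshold and 3 missed it. In whole tissue, fewer cells of a type and less RNA per cell cannot be told apart, and the labels give no batch or date within which to repeat the comparison. Earlier results of these data had already shown immediate early genes to be variable here, so the pairs are not independent evidence of a shared course.

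To set these pairs against all other genes, the log2(FPKM + 1) of every gene was regressed on that of each member across the 29 tumours in limma, with Benjamini-Hochberg adjustment over all genes tested and a threshold of 0.05. A slope is the change in log2(FPKM + 1) of a gene per unit of the member. In the fit on FOS, 25 of 15164 genes passed (0.165%), and the other 4 members were among them. EGR1 had a slope of 0.65 ± 0.0721 (SE, limma adjusted p = 2.6e-06), ATF3 0.40 ± 0.0667 (adjusted p = 0.000983), JUN 0.34 ± 0.0653 (adjusted p = 0.00928) and BTG2 0.41 ± 0.0816 (adjusted p = 0.0131). In the fit on ATF3, 34 genes passed (0.224%), all with positive slopes, and JUN had the smallest adjusted p of all genes (slope 0.75 ± 0.0968, limma adjusted p = 0.000128). In the fit on JUN, 17 genes passed (0.112%), and ATF3 had the smallest adjusted p (slope 0.91 ± 0.116, limma adjusted p = 1e-04), while BTG2 did not pass (slope 0.80 ± 0.174, adjusted p = 0.0568). This count was 0 without the 2 tumours farthest from the JUN median, where ATF3 had a slope of 0.77 (limma adjusted p = 0.0636), and 3 with the number of detected genes in the model. The fit on EGR1 called 44 genes (0.29%) and that on BTG2 called 225 (1.48%), the other 4 members included in each. Neither count was stable: both fell without the 2 tumours farthest from the member's median and rose without DOS.6. The BTG2 count also fell without DOS.32 and DOS.115, as given at the end. Of the 20 slopes of a member on another, 19 passed and all 20 were positive. Leaving out the 2 tumours with the most extreme level of the member regressed on (farthest from its median), 10 of the 19 missed the threshold, among them ATF3 on FOS (slope 0.31, limma adjusted p = 0.0526) and FOS on ATF3 (slope 1.45, adjusted p = 0.0524). DOS.6 alone decided 3 calls: without it the adjusted p in limma was 0.0758 for BTG2 on FOS, 0.0594 for JUN on FOS and 0.0595 for FOS on JUN.

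Beyond the 5 members themselves, the 5 genes with a symbol that varied most closely with each member were named. Of these, all but OTUD1, TMX4 and PRKAR2B belong to the immediate early list described below. Among non-members, FOS varied most closely with OTUD1, a deubiquitinase, at r = 0.850 and rho = 0.890 over the 29 tumours. IER2 (r = 0.816), a nuclear immediate early protein, followed, and after it DUSP1 (r = 0.809), a phosphatase that switches off MAP kinases. PPP1R15A (r = 0.781), which brings a phosphatase to a translation initiation factor after stress, and the zinc finger factor EGR2 (r = 0.776) completed the 5 closest non-members with a symbol. A row that the table gives only by the identifier ENSCAFG00000004443 had a smaller adjusted p than all of these (slope on FOS 1.03 ± 0.0795, limma adjusted p = 6.69e-10), and it was singled out after its value was seen. For EGR1 the closest non-members were its relative EGR2 (r = 0.910), the AP-1 subunit JUNB (r = 0.893), IER2 (r = 0.876), JUND (r = 0.848) and ZFP36 (r = 0.846), whose protein hastens the decay of inflammatory messenger RNAs.

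Among non-members, JUN was closest to its relative JUND (r = 0.749), then to OTUD1 (r = 0.748), EGR2 (r = 0.715), the endoplasmic reticulum thioredoxin TMX4 (r = 0.700) and JUNB (r = 0.695). BTG2 was closest among non-members to ZFP36 (r = 0.892), JUNB (r = 0.845), the orphan nuclear receptor NR4A1 (r = 0.802), PRKAR2B (r = 0.779), a regulatory subunit of protein kinase A, and the small GTPase RHOB (r = 0.778). ATF3 was closer to JUN (r = 0.827) and EGR1 (r = 0.792) than to any other gene with a symbol, and closest among non-members to the zinc finger factor KLF6 at r = 0.790 and rho = 0.763 (slope 0.52 ± 0.0787, limma adjusted p = 0.000432), then to ZFP36 (r = 0.789), PPP1R15A (r = 0.778), EGR2 (r = 0.759) and TMX4 (r = 0.739). KLF6 ranged from 22.7 to 164 FPKM in the tumours, with a median of 37.2, and PPP1R15A from 6.37 to 166 with a median of 21.4. Each of these 25 likenesses to a non-member, picked for its high r, passed limma's threshold over all genes with all 29 tumours. Without the 2 tumours farthest from the JUN median, no gene passed with JUN, so none of its likenesses did. TMX4 had a lower rho, 0.6 with JUN and 0.605 with ATF3. Its maximum of 74.8 FPKM fell in DOS.6, the highest tumour for both JUN and ATF3.

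A list of 37 further immediate early genes in the table was read from the same fits. It was chosen with earlier results of these data known, so its counts are not independent evidence. In the fit on FOS, 8 of the 37 passed with a positive slope and 0 with a negative one, against 0.145% of all genes with a positive call. The 8 were IER2, DUSP1, PPP1R15A, JUNB, JUND, ZFP36, EGR2 and RHOB, with DUSP1 at a slope of 0.53 ± 0.0701 (limma adjusted p = 5.41e-05). The median slope of the list was 0.211, against 0.00439 over all genes, and 36 of 37 slopes were positive. In the fit on ATF3, 12 of the 37 passed, all positive, against 0.224% of all genes, and the median slope was 0.485 against 0.00635. ZFP36 rose by 0.95 ± 0.135 per unit of ATF3 (limma adjusted p = 0.000258) and PPP1R15A by 0.69 ± 0.104 (adjusted p = 0.000432). The list held 15 positive calls in the fit on EGR1, 22 in that on BTG2 and 5 in that on JUN, against positive calls in 0.251%, 1.25% and 0.112% of all genes. Of the 146 positive calls with a symbol in the fit on BTG2, 120 lay outside both the list and the members, against 12 of 31 for EGR1. Leaving out the 2 tumours farthest from the member's median, the counts within the list were 8 for FOS, 4 for ATF3, 6 for EGR1, 12 for BTG2 and 0 for JUN. The JUN count was 2 without DOS.6.

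**Figure D3:**
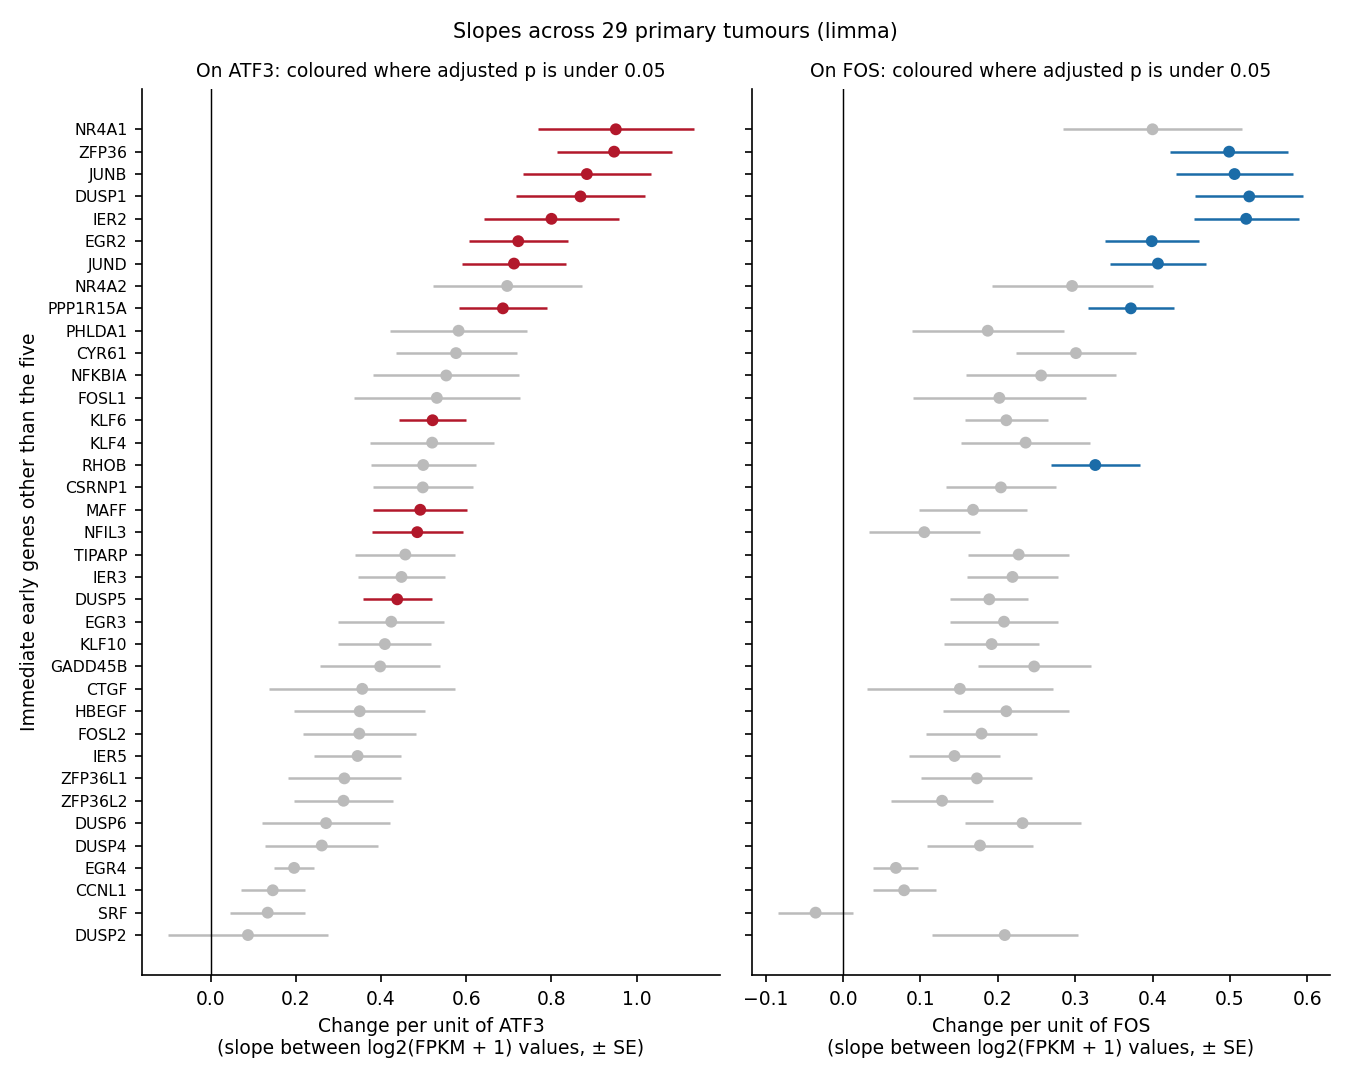
Slope (± SE, limma, 29 primary tumours) of 37 immediate early genes on ATF3 at left and on FOS at right, as change in log2(FPKM + 1) per unit of the member, coloured where the adjusted p over all genes is under 0.05. In the left panel 12 genes are coloured and in the right panel 8, and the slope of SRF on FOS alone lies below 0.

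With a negative slope on FOS, 3 genes passed (0.0198%): the DNA polymerase subunit POLD1 (-0.23 ± 0.0486, limma adjusted p = 0.0321), the junction protein AMOT (-0.24 ± 0.051, adjusted p = 0.0277) and CCDC150 (-0.20 ± 0.0403, adjusted p = 0.0131). These were named after their values were seen. Of 14 p53 targets, 0 passed in the fit on FOS by limma (4 positive and 1 negative at an unadjusted p under 0.05). In the fit on ATF3 the kinase PLK3 passed (slope 0.46 ± 0.101, limma adjusted p = 0.0352), and 0 of the 14 passed without the 2 tumours farthest from the ATF3 median, without DOS.32 and DOS.115, or with the number of detected genes in the model. None of 13 macrophage, 10 endothelial, 9 T cell or 9 bone matrix genes passed in either fit (limma). At an unadjusted p under 0.05, 4 macrophage and 1 endothelial gene had a positive slope on FOS, 1 macrophage gene had a positive slope on ATF3 and 2 bone matrix genes a negative one. The median slope of the macrophage genes was 0.152 on FOS and 0.186 on ATF3. That of the endothelial genes was 0.154 on FOS and 0.0717 on ATF3, and that of the bone matrix genes -0.0179 on FOS and -0.303 on ATF3. On FOS, 100% of macrophage and endothelial slopes were positive, 22.2% of T cell and 33.3% of bone matrix slopes, against 53% of all genes. On ATF3 these shares were 92.3%, 100%, 22.2% and 0%, against 52.6%. In the fit on BTG2, 0 of the macrophage, endothelial, T cell and bone matrix genes passed. There the median slope was 0.385 for macrophage and 0.312 for endothelial genes, and 100% of slopes in either list were positive, against 51.7% of all genes. With BTG2, 1 of 14 p53 targets passed, GADD45A (slope 0.75 ± 0.152, limma adjusted p = 0.00865). So did 1 of 8 smooth muscle and pericyte genes, KCNMB1 (slope 0.71 ± 0.133, limma adjusted p = 0.00425), against positive calls in 1.25% of all genes. The part of these cell types in the slopes of the members was not tested.

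ATF3 was next set apart from FOS. A line through the 29 tumours gave ATF3 a slope of 0.40 on FOS (log2 scale), with a residual SD of 0.77. Tumours lay between -1.41 (DOS.70) and 1.71 (DOS.6) from the line. The metastasis lay 3.77 above it and the osteoblast culture 1.97 above it, both beyond all tumours on the FPKM scale, while OSCA.78 lay 1.25 above and OSCA.8 lay at -0.74. After rescaling, the metastasis lay 3.79 above the line, beyond the tumours, and the culture 1.35 above it, within their range of -1.49 to 1.7. As a share of the FOS level, ATF3 stood at 26.2% in the metastasis, 4.4% in OSCA.8, 110% in OSCA.78 and 22.9% in the culture. In the tumours the share had a minimum of 1.17% in DOS.70, a median of 8.13% and a maximum of 41.5% in DOS.116. The high share in DOS.116 came with 7.36 FPKM of ATF3 and 17.7 of FOS, and the high share in the metastasis with 361 of ATF3 and 1378 of FOS.

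**Figure D4:**
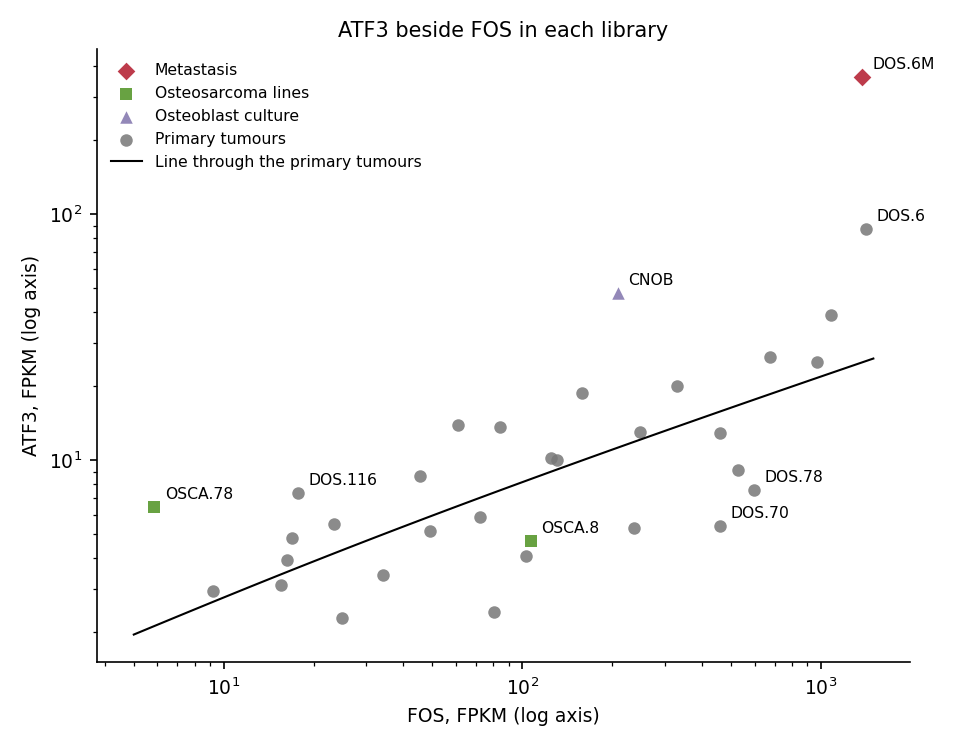
ATF3 against FOS in FPKM (both log axes) in the metastasis (diamond), the 2 lines (squares), the osteoblast culture (triangle) and the 29 primary tumours (circles), with the line fitted through the tumours on log2(FPKM + 1). The metastasis and the culture lie 3.77 and 1.97 above the line, and the tumours between -1.41 and 1.71. After rescaling to equal summed FPKM the culture falls within the tumour range.

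With ATF3 and FOS together in the model, few genes passed with either at a given level of the other. At a given FOS level, 1 of 15163 genes passed with ATF3 (0.0066%). This was PDK4, a kinase that holds back the oxidation of pyruvate (slope 1.56 ± 0.272, limma adjusted p = 0.0429). PDK4 ranged from 0.198 to 57.2 FPKM in the tumours with a median of 5.09, and stood at 24.5 in the metastasis, 1.86 in OSCA.8, 1.21 in OSCA.78 and 1.89 in the culture. The PDK4 call ended with no filter on low values (limma adjusted p = 0.0929), with quantile normalization (0.135), with the number of detected genes in the model (0.252), with the 2 most extreme tumours for ATF3 left out (0.0889) and without DOS.32 and DOS.115 (0.237). JUN had a slope of 0.63 ± 0.144 on ATF3 at a given FOS level (limma adjusted p = 0.26) and 0.09 ± 0.078 on FOS at a given ATF3 level (adjusted p = 0.83). EGR1 had a slope of 0.49 ± 0.183 on ATF3 at a given FOS level (limma adjusted p = 0.722) and 0.45 ± 0.0988 on FOS at a given ATF3 level (adjusted p = 0.269). At a given ATF3 level, 1 gene passed with FOS (0.0066%), a row with no symbol. No bone matrix, osteoclast or endothelial gene passed with either. With ATF3 at a given FOS level, 0% of the slopes in each of these lists were positive (medians -0.759, -0.599 and -0.247). With FOS at a given ATF3 level, 100% were positive (medians 0.255, 0.338 and 0.263). Among all genes the shares were 51.9% and 49.5%. ATF3 and FOS correlated, so their slopes are not independent. The lists were picked after their values were seen, and their part was not tested.

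The genes listed here for the integrated stress response did not pass with ATF3. Of these 26 genes, 0 passed in the fit on ATF3 and 0 in that on FOS (limma), where 10 and 7 had a positive slope at an unadjusted p under 0.05. PPP1R15A, which acts after stress but was counted in the immediate early list, did pass with ATF3 (slope 0.69 ± 0.104, limma adjusted p = 0.000432). Among the 26, the smallest adjusted p in the fit on ATF3 belonged to HERPUD1, a protein of endoplasmic reticulum quality control (slope 0.39 ± 0.0923, limma adjusted p = 0.0703). ATF4 itself had a slope of 0.23 ± 0.0655 on ATF3 (adjusted p = 0.253), and the cystine transporter SLC7A11 one of 0.29 ± 0.0905 (adjusted p = 0.315). The median slope of the list was 0.184 on ATF3, against 0.00635 over all genes, and 22 of 26 slopes were positive. In the joint fit, 0 of the 26 passed with ATF3 or with FOS (limma). On ATF3 at a given FOS level, the median was 0.225 and 92.3% of slopes were positive, against 51.9% of all genes. On FOS at a given ATF3 level, the median was -0.0485 and 42.3% were positive, against 49.5% of all genes.

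The metastasis was set against DOS.6, the primary tumour with the same title number, with 1 library on either side and so no replicate check. Across genes, the deviations of DOS.6M and DOS.6 from the mean tumour library correlated at r = 0.514, the 5th highest of all pairs of libraries. ATF3 had 361 FPKM in the metastasis, against 86.8 in DOS.6, a difference of 2.04 in log2(FPKM + 1), and 78 of 15165 genes had a larger positive difference. EGR1 had 472 FPKM in the metastasis, against 296 in DOS.6 (difference 0.67), and BTG2 63.5 against 52.9 (difference 0.26). JUN had 743 FPKM in the metastasis, against 713 in DOS.6 (difference 0.06), and FOS 1378 against 1412 (difference -0.04). ATF3 was thus the only member at least 2-fold higher in the metastasis (a difference of 1 or more), a mark that 3.9% of all genes passed. At least 2-fold lower in the metastasis were 5.16% of all genes, 6 of 9 bone matrix genes, 6 of 10 endothelial genes, 5 of 13 macrophage genes and 3 of 6 fibroblast genes, with 0 genes of these lists at least 2-fold higher. The macrophage genes summed to 424 FPKM in the metastasis, within the tumour range of 96.6 to 1710. Their part in the ATF3 difference was not tested.

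Within the immediate early list, 4 of 37 genes were at least 2-fold higher in the metastasis than in DOS.6, against 3.9% of all genes, and 2 at least 2-fold lower, against 5.16%. The higher ones, named after their values were seen, were EGR3 (10.5 FPKM in the metastasis, against 2.31 in DOS.6), EGR4 (11.8 against 2.37), the nuclear receptor NR4A2 (13 against 4.97) and PHLDA1 (75.4 against 24.3). KLF6, the non-member with a symbol closest to ATF3 among the tumours, was not among them, with 70.4 FPKM in the metastasis and 93.7 in DOS.6. In the integrated stress list, 3 of 26 genes were at least 2-fold lower and 1 was at least 2-fold higher, against 5.16% and 3.9% of all genes, and the median difference was -0.36. The higher one was DDIT3, a stress-induced partner of other leucine zipper factors (19.9 FPKM in the metastasis, against 8.96 in DOS.6). In the metastasis DDIT3 lay above all 29 tumours, whose highest value was 10.7 FPKM. HERPUD1 did too, at 247 FPKM against at most 208 in a tumour (147 in DOS.6). ATF5 and SLC7A11 in the metastasis lay above only 1 tumour. The metastasis lay above every tumour for 5% of all genes. HERPUD1, ATF5 and SLC7A11 were named here after their values were seen. ATF4 had 337 FPKM in the metastasis, against 412 in DOS.6.

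The lines were set against the 29 primary tumours to ask how cultured tumour cells differ from tumour tissue. None of the 5 members passed (limma, 0 at an unadjusted p under 0.05), whereas 2489 of 15165 genes (16.4%) did, 1288 higher and 1201 lower. FOS differed by -2.08 ± 1.5 on the log2(FPKM + 1) scale (SE, limma adjusted p = 0.366), BTG2 by -0.74 ± 0.867 (adjusted p = 0.597), ATF3 by -0.58 ± 0.773 (adjusted p = 0.642), JUN by -0.45 ± 0.716 (adjusted p = 0.702) and EGR1 by -0.17 ± 1.13 (adjusted p = 0.933). With 2 lines, the spread comes almost wholly from the tumours, and the SEs allow sizeable differences in either direction. The lines themselves differed, OSCA.8 having 107 FPKM of FOS and OSCA.78 5.86. Without OSCA.78, the differences of EGR1 and JUN turned positive (1.38 and 0.34, limma adjusted p = 0.773 and 0.924).

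Of the 37 immediate early genes, 2 were lower in the lines and 0 higher (limma, 7 and 0 at an unadjusted p under 0.05), against 7.92% and 8.49% of all genes. These were the cyclin CCNL1 (11.9 FPKM in the line OSCA.78 and 11.4 in OSCA.8, against 28.7 to 177 in the tumours, difference -2.01 ± 0.337, limma adjusted p = 8.68e-05) and the phosphatase DUSP2 (0.609 and 0.685 FPKM, against 1.23 to 36.1, difference -2.57 ± 0.796, adjusted p = 0.0249). The median difference of the list was -0.685, against -0.0508 over all genes. Of the 26 integrated stress genes, 10 rose in the lines and 0 fell (limma, 12 and 1 at an unadjusted p under 0.05). CHAC1, which degrades glutathione, had 47.5 FPKM in the line OSCA.78 and 56.7 in OSCA.8, against 2.32 to 31.6 in the tumours (difference 2.70 ± 0.504, limma adjusted p = 0.000334). The serine and glycine enzyme SHMT2 had 385 and 331 FPKM in the lines, against 27.5 to 161 (difference 2.22 ± 0.416, limma adjusted p = 0.000355), and the factor ATF5 had 23.4 and 78, against 1.83 to 18.9 (difference 2.49 ± 0.471, adjusted p = 0.000406). In each of these 3 genes both lines lay above every tumour, as in 4.04% of all genes, while ATF3 lay within the tumour range. The count of 10 was 4 without OSCA.78 and 6 without OSCA.8.

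Macrophage and endothelial markers were low in the lines. Of 13 macrophage genes, 12 fell in the lines (limma), against 7.92% of all genes, with a summed level of 2.16 to 2.93 FPKM in the lines and 96.6 to 1710 in the tumours. Of 10 endothelial genes, 8 fell, with sums of 37.1 to 87.8 FPKM in the lines and 123 to 2731 in the tumours. The T cell genes CD3D, GZMK and GZMB were listed at 0 in both lines. Of the 9 T cell, 6 osteoclast and 5 neutrophil genes, 0 passed (limma). Of 6 fibroblast genes 2 fell, with sums of 249 to 833 FPKM in the lines, inside the range of 212 to 5874 in the tumours. Of 9 bone matrix genes, which mark the tumour's own lineage, 5 fell, with sums of 3480 to 6186 FPKM in the lines and 6889 to 42912 in the tumours. The part of these genes and cells in the results for the lines was not tested.

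OSCA.8 and OSCA.78 were also set beside the tumours that share their title numbers, again with 1 library on either side. OSCA.78 had 5.86 FPKM of FOS, against 596 in DOS.78 (log2 difference -6.44), and 31 of 15165 genes had a more negative difference. EGR1 had 14.2 FPKM in OSCA.78, against 146 in DOS.78 (difference -3.28), and JUN had 57.4 against 198 (difference -1.77). BTG2 and ATF3 differed by -0.34 and -0.20 in the same pair. At least 2-fold lower levels were found for 18% of all genes in this pair, a mark that FOS, EGR1 and JUN passed and BTG2 and ATF3 did not.

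In the other pair the signs differed. EGR1 had 129 FPKM in OSCA.8, against 23.2 in DOS.8 (difference 2.43), and JUN had 175 against 79.5 (difference 1.13). FOS had 107 FPKM in OSCA.8, against 84.2 in DOS.8 (difference 0.34), and BTG2 4.06 against 5.89 (difference -0.45). ATF3 had 4.69 FPKM in OSCA.8, against 13.7 in DOS.8 (difference -1.37). In this pair 10.3% of all genes were at least 2-fold higher, EGR1 and JUN among them, and 10.1% at least 2-fold lower, ATF3 among them.

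**Figure D5:**
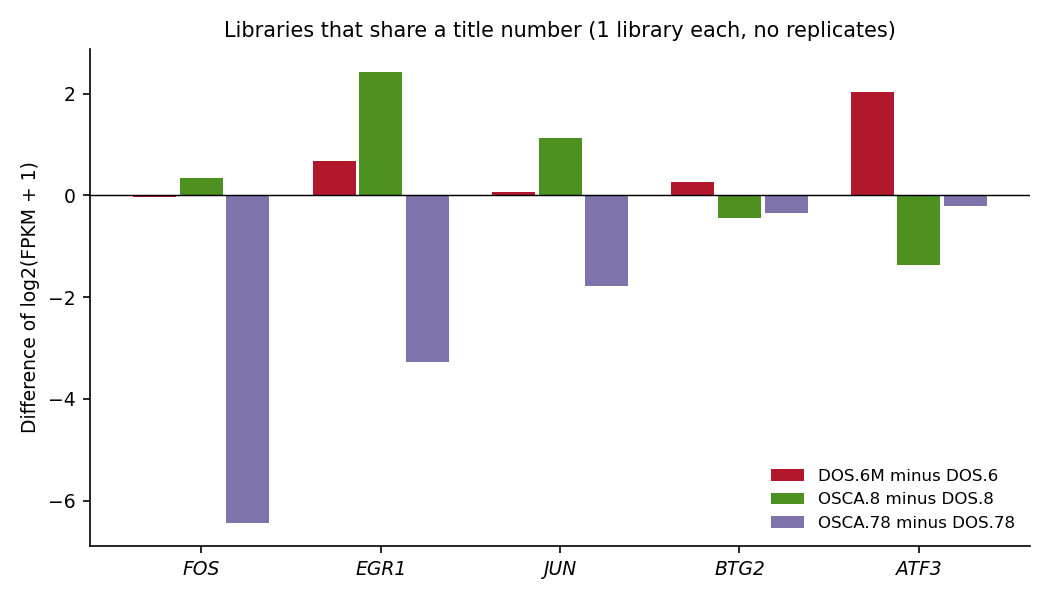
Difference in log2(FPKM + 1) of each gene between libraries that share a title number, as DOS.6M minus DOS.6, OSCA.8 minus DOS.8 and OSCA.78 minus DOS.78, with 1 library on either side and no error bars. ATF3 is the tallest bar of the metastasis pair at 2.04, and FOS the deepest of the OSCA.78 pair at -6.44.

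The osteoblast culture, 1 library with no replicate, had ATF3, EGR1 and BTG2 near the top of the tumour range and FOS and JUN nearer its middle on the FPKM scale. ATF3 at 47.8 FPKM lay below 1 tumour, EGR1 at 284 below 3 and BTG2 at 99.6 below 0, whereas FOS at 209 lay below 11 and JUN at 140 below 13. After rescaling, ATF3 lay below 4 tumours, EGR1 below 6, BTG2 below 2, FOS below 15 and JUN below 26. The culture also had 583 FPKM of CHAC1, against 2.32 to 31.6 in the tumours, 203 of the pseudokinase TRIB3, against 1.32 to 29.7, and 1095 of ATF4, against 202 to 710. After rescaling, CHAC1 and TRIB3 in the culture were still above every tumour, and ATF4 was below 2. On the FPKM scale the culture lay above every tumour for 22% of all genes and below every tumour for 19.5%, so these positions are common in this library. Those shares were 6.23% and 38% after rescaling. Its 13 macrophage genes summed to 25.8 FPKM, with AIF1 and MARCO listed at 0, against 96.6 to 1710 in the tumours, and their part in its levels was not tested.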

How the data were processed

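RNA sequencing values of 34 dog libraries were taken from the table the authors deposited, 1 row per gene and 1 column per library. The header names no unit. The deposited values were read as FPKM, since Cufflinks 2.2.1 is among the tools in the submitters' processing notes, with FastQC 0.11.2, TopHat2 2.0.13 and the assembly canFam3. Annotation, parameters and the meaning of masked, a word attached to the table, are not stated in the sources used here. Without read numbers the depth stays unknown, and no counting intervals were made. The gene PGK1, which every cell uses, is listed at 0 in every library, so a 0 is reported only as listed. Of the rows, 14335 carry a symbol (13096 found in a RefSeq gene table of another assembly, from which no coordinates are printed) and 9653 an Ensembl identifier alone. The 5 members matched by symbol.

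The filter kept the 15165 rows reaching 1 FPKM in 2 or more libraries, 1 FPKM was added, and log2 was taken. A fold change on this scale understates that of low genes. DOS.46 and DOS.46.2 were averaged, giving 29 tumours. The lines against the tumours, the regression on each member, and that on ATF3 and FOS together were fitted in limma 3.58.1 under R 4.3.3 (two-sided, with lmFit and a trended, robust eBayes, Benjamini-Hochberg over all genes, threshold 0.05). The gene regressed on was left out of the adjustment. The scripts were checked on simulated data. Correlations used 100000 permutations over tumours, two-sided, for 10 pairs. The metastasis and the osteoblast culture were described without a test. Descriptions and figures were made in Python 3.11.15 (pandas 2.3.3, numpy 2.4.6, matplotlib 3.10.9, scipy 1.17.1).

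Named genes were the members, the 5 non-member genes with a symbol of highest r for each member, called genes of the joint fit, and the 3 genes of smallest adjusted p in a list. Others are said to be named after their values were seen, and group members are named as examples. The members and lists were chosen with earlier results of these data known. Alternatives covered the pseudocount (0.1 FPKM), the filter, scaling, the handling of DOS.46.2, the number of detected genes as a covariate, a block on title numbers, and leaving out tumours or lines. Those without DOS.6, without DOS.32 and DOS.115, or with FPKM rescaled to 1000000 per library were chosen after seeing the data.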

Additional observations from a re-analysis of the deposited data

How the results depend on the processing

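The fold changes of the members kept their sign short of the threshold in 53 recomputations and changed sign in 2, and counts of called genes stayed within 1.5 times the reported one in 60 and not in 21. Of the 20 slopes of a member on another, recomputed 10 ways, 182 stayed on their side of the threshold, 16 missed it and 2 newly passed it, while all 60 recomputed slopes of the joint fit of ATF3 and FOS stayed on their side, and none changed sign. Without one line, the count for the lines ranged from 344 (without OSCA.78) to 1998 (without OSCA.8), the EGR1 difference from -1.72 to 1.38 and the JUN difference from -1.25 to 0.34. Blocking on the title numbers left 0 genes, in 2 pairs whose deviations correlated at r = 0.195 and 0.164, too few pairs to tell whether the numbers pair the samples. Deviations of the lines were taken there from the mean of the 2 lines, so they mirror each other. Taken from the mean tumour library, r was 0.301 for OSCA.8 with DOS.8 and 0.243 for OSCA.78 with DOS.78. OSCA.78 with DOS.116, which do not share a number, had 0.305. By scaling, higher and lower calls in the lines split 1288 to 1201 as reported, 1121 to 1639 with a pseudocount of 0.1 FPKM, 962 to 1388 with upper quartile scaling and 1345 to 970 with quantile normalization. Upper quartile scaling moved the median difference of all genes to -0.141. Without the 2 tumours farthest from the covariate's median, counts were 15 for ATF3, 15 for EGR1, 76 for BTG2, 0 for JUN, 0 for ATF3 given FOS and 2 for FOS given ATF3. With that setting the slopes that missed the threshold were 0.31 (ATF3 on FOS), 0.77 (ATF3 on JUN), 0.82 (BTG2 on ATF3), 0.35 (BTG2 on FOS), 1.21 (EGR1 on JUN), 1.45 (FOS on ATF3), 1.17 (FOS on BTG2), 1.36 (FOS on JUN), 0.45 (JUN on BTG2) and 0.26 (JUN on FOS). With the number of detected genes in the model, counts were 3 for JUN, 0 for ATF3 given FOS and 2 for FOS given ATF3, and BTG2 on FOS (0.39), FOS on JUN (1.35) and JUN on FOS (0.30) missed it. Without DOS.6, counts were 68 for EGR1, 429 for BTG2 and 3 for ATF3 given FOS, and BTG2 on FOS (0.38), FOS on JUN (1.39) and JUN on FOS (0.30) missed it. Without DOS.32 and DOS.115, counts were 65 for BTG2 and 0 for ATF3 given FOS. With no filter and with quantile normalization ATF3 given FOS had 0 calls. FOS given ATF3 had 2 with quantile normalization, with the lower pseudocount and with DOS.46 and DOS.46.2 apart. BTG2 on JUN passed with those libraries apart (0.81) and without DOS.32 and DOS.115 (0.79). The causes were not tested beyond fewer tumours in some fits. Read depth is unknown, so its limit on low values was not measured.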

Other observations

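Heat shock genes, which code for chaperones that refold damaged protein, stood high in the metastasis as ATF3 did. Of 12 such genes, 7 were at least 2-fold higher in the metastasis than in DOS.6, and 1 was at least 2-fold lower, against 3.9% and 5.16% of all genes. HSPH1 had 237 FPKM in the metastasis, against 71.9 in DOS.6, HSP90AA1 had 727 against 272, the co-chaperone BAG3 had 96.1 against 33.7, and DNAJB1 had 152 against 72.2. HSPA8 at 484 FPKM in the metastasis lay above all 29 tumours, whose highest value was 320. Among the tumours themselves, 0 of 12 heat shock genes passed in the fit on ATF3 and 0 in that on FOS (limma), with median slopes of -0.0187 and -0.0059. At an unadjusted p under 0.05, 2 had a positive and 1 a negative slope on ATF3, and 2 a negative slope on FOS. The 2 positive ones on ATF3 were BAG3 (0.323 ± 0.0946) and DNAJB1 (0.375 ± 0.132), both also higher in the metastasis. These genes were named after their values were seen, and 1 library stands on either side.

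Cell cycle genes all leaned the other way from the members. Of 16 tested, 16 had a negative slope on FOS and 16 on ATF3, whereas 53% and 52.6% of all genes had a positive one. Medians were -0.154 and -0.245 against 0.00439 and 0.00635 over all genes, and 0 passed the threshold in either fit (limma, 10 on FOS and 9 on ATF3 at an unadjusted p under 0.05). All 16 were negative on EGR1, JUN and BTG2 too (medians -0.258, -0.24 and -0.316). MCM2 passed with BTG2 (slope -0.36 ± 0.089, limma adjusted p = 0.0362), where 36 of 15164 genes had a negative call.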
